A study of Homo sapiens with 16 samples.

Results

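Human skin fibroblasts given the phorbol ester TPA for 1 h were compared with untreated cells by the RNA content of 5 libraries, 2 of TPA-treated and 3 of untreated cells, chosen by the treatment named in the labels. These are 5 of the 15 distinct libraries of the series. The labels name 6 samples for the comparison out of 16 in all, but the fourth control held the same counts as the third at 100% of 19340 genes with a count, so that this pair was counted once as control 3. Whether those counts belong to the third or the fourth control cannot be told apart.

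The cells are CCD-1070Sk, an established line of normal human skin fibroblasts. All groups were serum starved before treatment. The control cells were taken at 0 h without agent, and the TPA cells after 1 h with 100 nM TPA (12-O-tetradecanoylphorbol-13-acetate), so that the agent and 1 h of time cannot be told apart. Other groups of the same line, used here for reference, received 30 ng/ml epidermal growth factor (EGF) for 1 h, 10 µM of the kinase inhibitor H89 alone, or TPA for 1 h after H89. Strand-specific libraries were made from total RNA after ribosomal RNA had been removed. Nothing in the labels says that replicates were separate cultures, so the scatter between replicates against which the p-values were computed may be technical. That scatter was estimated over all 15 distinct libraries, not over these 5 alone.

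TPA mimics diacylglycerol, the lipid messenger that recruits protein kinase C to membranes. Active protein kinase C feeds into the RAS, RAF, MEK and ERK kinase cascade, and ERK and its downstream kinases phosphorylate factors that already sit at promoters, such as the ternary complex factors that partner SRF, and CREB. The genes that respond first, the immediate-early genes, need no new protein synthesis. Many encode transcription factors, and others encode the phosphatases, Sprouty proteins and RNA-decay factors that later shut the signal and its transcripts down.

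Some of the best studied elements of such promoters can be read in 4 of the genes that rose here. These stretches were picked as examples, and each carries TGACG or its reverse complement CGTCA. Binding and function of these elements were not measured. The sequences are from RefSeq on GRCh38.p14, 5′ to 3′ on the strand of the gene, and all lie before the annotated transcription start. Capitals mark CArG boxes (bound by SRF), the half-site TGACG or its reverse complement CGTCA of the cAMP response element (bound by CREB and ATF factors), and TATAAA. The EGR1 stretch is chr5:138465334-138465427, plus strand. The DUSP1 stretch is chr5:172771292-172771377, minus strand. The NR4A3 stretch is chr9:99821766-99821874, plus strand. The PTGS2 stretch is chr1:186680440-186680491, minus strand.
EGR1: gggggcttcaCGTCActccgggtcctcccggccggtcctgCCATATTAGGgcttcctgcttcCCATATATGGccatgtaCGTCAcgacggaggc
DUSP1: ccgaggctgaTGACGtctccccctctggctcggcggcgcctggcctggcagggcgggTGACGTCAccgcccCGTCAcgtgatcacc
NR4A3: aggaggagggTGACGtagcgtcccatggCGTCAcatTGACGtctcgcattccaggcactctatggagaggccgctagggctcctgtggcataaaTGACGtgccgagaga
PTGS2: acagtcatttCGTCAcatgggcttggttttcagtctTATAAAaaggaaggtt

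EGR1 holds a pair of CArG boxes between half-sites, DUSP1 holds a complete palindrome TGACGTCA, NR4A3 holds half-sites on both strands, and PTGS2 holds 1 half-site upstream of its TATA box. A promoter could be read for 50 of the 72 genes called higher and for 12959 tested genes. Over the 250 bases before the start, on both strands, TGACG was present in 23 of the 50 (46%) against 27.5% of all tested promoters. The palindrome TGACGTCA, which contains the half-site, was present in 4 of the 50 (8%) against 2.52%. TATAAA on the strand of the gene was present in 18% against 4.34%, and GCGGGGGCG, the site of EGR proteins, in 16% against 7.11%. A CArG box was present in EGR1 alone of the 50 (2%, against 1.05%). TGACTCA, the AP-1 site, was present in 4% against 2.98%, and the NF-kappaB box in 8% against 11.6%. These shares describe letters in a window and were not tested.

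The genes called higher after 1 h with TPA included many known early-response genes. At an adjusted p under 0.05 (edgeR's quasi-likelihood test, Benjamini-Hochberg adjustment over 18575 tested genes), 72 genes were higher (0.388% of those tested) and 5 lower (0.0269%). At an unadjusted p under 0.05 there were 2453 of the 18575 genes, 1443 higher and 1010 lower. These are the background for the list counts at an unadjusted p given below. The 72 had a median log2 fold change of 3.26, against -0.02 over all genes tested, and those values chose them. In the libraries themselves, the 72 genes took between 0.135% and 0.263% of the counts of each control, 1.16% of TPA 1 and 3.16% of TPA 2. Levels are given below in CPM, the counts of a gene per 1e+06 counts of its library, scaled by edgeR's trimmed mean of M values (TMM), always in the order control 1, 2, 3 and then TPA 1, 2. Where a gene rose or fell by a value, that value is its log2 fold change.

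The number of calls depended on single libraries. Without control 1, 2 or 3 there were 29, 13 and 17 genes called higher and 2, 0 and 0 lower, and without TPA 2 there were 13 and 0. Without TPA 1, when TPA 2 is alone and assumed to vary like the other groups, 905 were called higher and 282 lower. All 77 genes kept their direction in these 5 fits, and 11 were called in each: ATF3, CSRNP1, DUSP1, DUSP2, DUSP5, EGR2, IER2, MAFF, NR4A3, SOWAHC and SPRY2. In each of the 77 both TPA libraries lay beyond all 3 controls, so leaving out 1 library left little room for a change of direction. With only the TPA and control libraries in the edgeR model no gene was called (1000 had an unadjusted p under 0.05).

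The TPA libraries differed from each other. Total counts were 33522696 in TPA 1 and 130075914 in TPA 2, which is 3.88 times deeper, and 43565645, 20113265 and 33648925 in the controls. Library sets could be read from the counts, though the labels name none: control 2 and TPA 1 carried 30.4% and 11.7% of counts in ribosomal RNA genes, control 3 and TPA 2 carried 0%, and control 1 had an excess of genes at a count of 1. Control 2 with TPA 1, and control 3 with TPA 2, therefore form a pair within each set that shares no library with the other. Control 1 was set with EGF 1 by the excess at a count of 1 alone. Their shares in ribosomal RNA genes differed, at 4.48% and 0.02%, so that set is less certain. TPA 2 also stood apart within its set, with 124 genes at a count of 1 against 594 in control 3 and 478 to 955 in the other libraries of the set. Of its genes with 1 to 20 counts, 73.4% had an even count, against 59.0% in control 3. The pooled comparison mixes treatment and set, and differences within each pair are given beside it on the log2 CPM scale.

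The 72 genes were higher in TPA 1 than in control 2 in 72 cases and higher in TPA 2 than in control 3 in 72 cases. The median difference was 2.51 in the TPA 1 pair and 3.47 in the TPA 2 pair, and 0 over all tested genes in both. In TPA 1, 66 of the 72 stood at least 2-fold above every control, and in TPA 2, 71 did. These are the libraries that chose the genes, so the counts are descriptions.

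**Figure D1:**
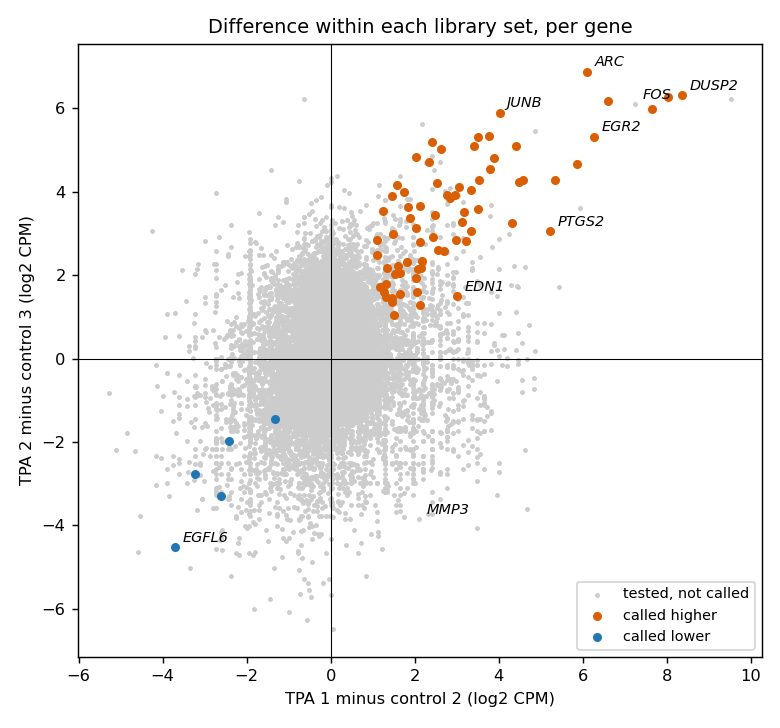
Each point is 1 tested gene, with the difference between TPA 1 and control 2 on the x axis and between TPA 2 and control 3 on the y axis, both in log2 CPM; orange points were called higher and blue points called lower. The 72 orange points lie in the upper right part and the 5 blue points in the lower left, while the cloud of other genes is broad and nearly round (Pearson r 0.172 across genes, which are not independent replicates).

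Over all tested genes the pairs shared a minority of their differences. At least 2-fold above control were 1814 genes in the TPA 1 pair (9.77%) and 3273 in the TPA 2 pair (17.6%), and 498 were in both, which is 27.5% of the first group and 15.2% of the second. At least 2-fold below control were 1842 (9.92%) and 3096 (16.7%), with 704 in both (38.2% and 22.7%).

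GC content separated the TPA 2 pair. Tested genes were divided into 5 equal bins by transcript GC. In the highest bin (58.2% to 87.9%), the median difference was 0.92 in the TPA 2 pair and -0.08 in the TPA 1 pair, and 47.3% against 9.33% of those genes were at least 2-fold above control. In the lowest bin the medians were -0.33 and 0.03. Of the 69 called genes with a GC value, 4, 5, 21, 18 and 21 fell in the bins from low to high GC, and their median GC was 53.1% against 48.5% over all tested genes. With a GC correction 76 genes were called higher and 5 lower, among them 68 of the 77 called without it, and after TPA 2 was thinned to the depth of TPA 1 there were 72 and 4.

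**Figure D2:**
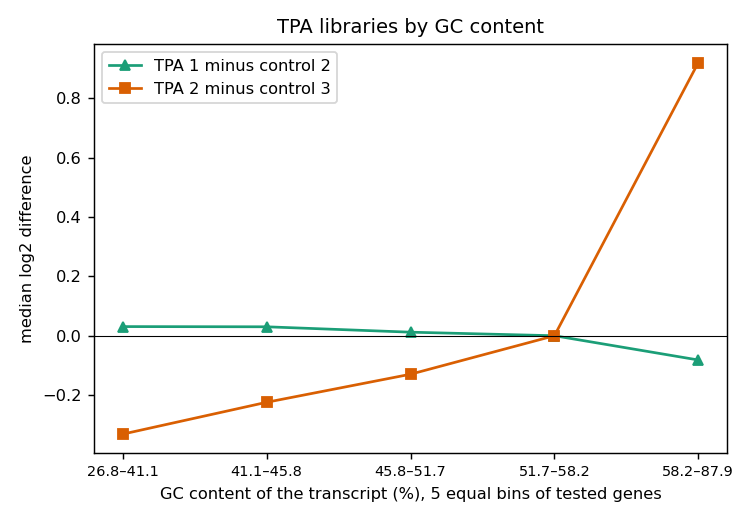
The x axis gives 5 equal bins of tested genes by transcript GC content (percent), and the y axis the median log2 difference within the TPA 1 pair (triangles) and the TPA 2 pair (squares). The TPA 1 line stays near 0 from 0.03 to -0.08, and the TPA 2 line runs from -0.33 to 0.92.

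Transcription factors of the early response made up much of the rise. Of 42 listed immediate-early transcription factors, 17 were called higher and none lower, with a median log2 fold change of 2.46. All 42 had a positive value, and in 38 both TPA libraries lay above all 3 controls (background 9.6% of all tested genes). The median was 2.32 in the TPA 1 pair and 3.20 in the TPA 2 pair. With a term for the library set, 29 of the 42 were called higher (background 0.948%). This list and those below were drawn up with earlier results of these data known, so their counts are descriptions. Over all tested genes 0.388% were called higher and 0.0269% lower, which is the background for the calls of each list.

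EGR1, EGR2 and EGR3, zinc finger factors that bind GC-rich sites, each rose. EGR2 stood at 10.01, 4.44 and 8.71 CPM in the controls and 347 and 349.9 CPM with TPA. Both TPA libraries were nearly equal and far above each control, with a log2 fold change of 5.49 (adjusted p = 0.00131, SE 0.57). EGR3 was at 5.39, 1.14 and 13.8 CPM and then 236 and 885 CPM. Its groups did not overlap either, although TPA 2 held 3.76 times the level of TPA 1 (log2 fold change 6.36, SE 1.04, adjusted p = 0.0209). EGR1, whose promoter holds the CArG boxes above, went from 32.8, 7.98 and 20.8 CPM to 465 and 533 CPM, a log2 fold change of 4.60 (adjusted p = 0.0209, SE 0.76).

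Among the NR4A orphan nuclear receptors, which act without a known ligand, NR4A1 and NR4A3 were called. NR4A3 was at 1.43, 1.4996 and 3.93 CPM in the controls and at 62.3 and 76.97 CPM with TPA. The lowest TPA value was 15.8 times the highest control, and the log2 fold change was 4.92 (adjusted p = 0.00131, SE 0.48). NR4A1 was at 12.9, 2.04 and 8.91 CPM and 201 and 649.9 CPM. It too did not overlap, with a log2 fold change of 5.73 (adjusted p = 0.00817, SE 0.78).

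The AP-1 family of FOS, JUN and ATF proteins was less uniform. JUNB was at 79.6, 48.6 and 136 CPM in the controls and 790.0 and 8108 CPM with TPA. Each TPA library lay above each control, but TPA 2 exceeded TPA 1 by 10.3 times, and JUNB alone took 0.754% of all counts of TPA 2. Its log2 fold change was 5.66 (adjusted p = 0.0147, SE 0.87). ATF3, a stress-inducible partner of JUN proteins, was at 4.56, 5.098 and 10.2 CPM and 123 and 198 CPM, with a log2 fold change of 4.60 (adjusted p = 0.00137, SE 0.49). MAFF, a small MAF protein, rose by 3.75 (adjusted p = 0.00158, edgeR).

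FOS itself was not called. Its levels were 138, 5.098 and 15.7 CPM in the controls and 785 and 1081 CPM with TPA. Both TPA libraries lay above all controls, but control 1 held many times more FOS than controls 2 and 3, and the log2 fold change was 4.14 (adjusted p = 0.137, SE 1.00). FOSB showed the same high control 1, with 28.8, 0.06 and 1.99 CPM in the controls and 75.995 and 151 CPM with TPA (log2 fold change 3.46, SE 1.23, adjusted p = 0.287). With a term for the library set both were called, at log2 fold changes of 5.92 and 5.85. The set of control 1 holds EGF 1, placed there only by its excess of genes at a count of 1, but no TPA library. With that term the high control 1 therefore bears on TPA against control only through EGF 1. The adjusted p of FOS ran from 0.000585 to 0.742 over its alternatives and that of FOSB from 0.00297 to 1. FOSL1, JUN, JUND and MYC had log2 fold changes of 3.56, 2.23, 2.38 and 1.69 and adjusted p of 0.0515, 0.0756, 0.103 and 0.0862, and each was called with that term. Their TPA libraries lay above their controls, at 104 and 147 CPM against 62.3, 28.3 and 26.1 CPM for MYC.

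HES1 and ID3 were also called. HES1, a repressor best known downstream of Notch, was at 2.19, 0.12 and 1.72 CPM in the controls, where control 2 had 2 counts, and at 42.4 and 136 CPM with TPA. Its groups were far apart, with a log2 fold change of 5.99 (adjusted p = 0.0335, SE 1.08). ID3, which sequesters basic helix-loop-helix factors, was at 7.75, 16.9 and 21.3 CPM and 89.8 and 776 CPM, so that TPA 2 was 8.64 times TPA 1 (log2 fold change 4.82, SE 0.87, adjusted p = 0.0335). ID1 had an even wider gap, 30.3 and 617 CPM in the TPA libraries against 5.23, 6.66 and 12.5 CPM in the controls, and was not called (log2 fold change 5.31, SE 1.14, adjusted p = 0.0756). KLF10, BHLHE40, CSRNP1, IER2, IER5, ETS1 and NFIL3 complete the 17, with log2 fold changes from 1.55 for ETS1 to 4.14 for BHLHE40.

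**Figure D3:**
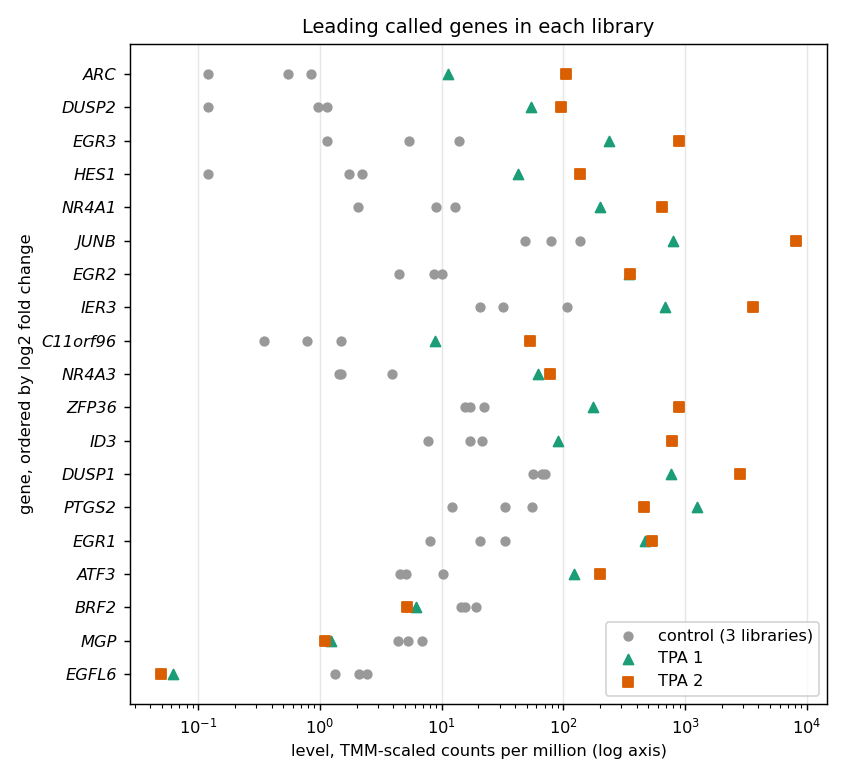
Points give the level of each gene in TMM-scaled CPM on a log axis, for the 3 controls (grey), TPA 1 (triangles) and TPA 2 (squares), with genes ordered by log2 fold change. All 16 rising genes have both TPA libraries to the right of every control, all 3 falling genes have both to the left, and JUNB and ARC show wide gaps between TPA 1 and TPA 2.

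Regulators that feed back on ERK signalling included 6 genes that were called higher (background 0.388%). Among the 24 tested genes of this list none was called lower, with a median log2 fold change of 0.96 (0.63 in the TPA 1 pair and 0.85 in the TPA 2 pair), and 19 were positive. DUSP1, a nuclear phosphatase of p38, JNK and ERK, was at 67.03, 56.6 and 70.5 CPM in the controls and 772 and 2839 CPM with TPA. The controls were tight and both TPA libraries far above them, with a log2 fold change of 4.80 (adjusted p = 0.00131, SE 0.50). DUSP5, which dephosphorylates nuclear ERK, was at 11.5, 13.9 and 19.5 CPM and 159.8 and 234 CPM. It had the lowest adjusted p of all called genes, with a log2 fold change of 3.72 (adjusted p = 0.000821, SE 0.33).

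DUSP2, another nuclear phosphatase, came from near the floor of detection. It was at 0.956, 0.12 and 1.15 CPM in the controls, with 2 counts in control 2, and at 53.97 and 94.9 CPM with TPA, a log2 fold change of 6.57 (adjusted p = 0.00397, SE 0.82). IER3, which prolongs ERK activity and promotes survival, was at 20.8, 32.1 and 106 CPM and 683 and 3631 CPM (log2 fold change 5.35, SE 0.84, adjusted p = 0.0164). SPRY2, a Sprouty inhibitor of receptor signalling, and ERRFI1 (MIG6), which binds and blocks EGF receptors, rose by 2.55 and 1.90 (adjusted p = 0.00131 and 0.00688, edgeR). DUSP6, the cytoplasmic ERK phosphatase, was not among them. It stood at 31.5, 42.6 and 41.8 CPM in the controls and 39.3 and 56.9 CPM with TPA, values that overlapped, and its log2 fold change of 0.32 (adjusted p = 0.727) became -0.10 without control 1, EGF 1 and TPA 2, the libraries least like the others.

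Factors that destroy short-lived messages included 2 that rose, ZFP36 and ZC3H12A. Of the 16 tested genes of mRNA decay and antiproliferative function none was lower, and all 16 were positive with a median log2 fold change of 0.82. ZFP36 (tristetraprolin), which binds AU-rich elements, was at 16.9, 15.6 and 22.2 CPM in the controls and 177 and 887 CPM with TPA. TPA 2 was 5.03 times TPA 1, yet the lower of them was well above each control (log2 fold change 4.86, SE 0.84, adjusted p = 0.0262). ZC3H12A, an RNase that cleaves inflammatory transcripts, rose by 3.83 (adjusted p = 0.0395, edgeR). BTG2 was at 92.2 and 131 CPM with TPA against 38.03, 44.99 and 43.97 CPM and was not called.

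Of 33 tested secreted cytokines and growth factors 5 were called higher (background 0.388%) and none lower, with a median log2 fold change of 1.16. LIF, a cytokine of the interleukin 6 family, was at 10.8, 7.198 and 13.99 CPM in the controls and 145 and 134 CPM with TPA. The TPA libraries were close to each other and apart from the controls, with a log2 fold change of 3.71 (adjusted p = 0.0119, SE 0.55). IL11, of the same family, was at 4.13, 8.16 and 10.2 CPM and 67.9 and 178 CPM (log2 fold change 4.04, SE 0.60, adjusted p = 0.0123). HBEGF, a membrane-bound ligand of the EGF receptor, was at 1.85, 1.38 and 2.71 CPM and 14.3 and 22.8 CPM (log2 fold change 3.22, SE 0.61, adjusted p = 0.0417). GDF15 rose by 4.02, with TPA 2 9.11 times TPA 1, and EDN1 (endothelin 1) by 2.45, with TPA 1 the higher library (adjusted p = 0.04 and 0.0164, edgeR).

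Inflammatory cytokines were unequal between the TPA libraries. IL6 was at 3.21, 12.4 and 23.8 CPM in the controls and 82.1 and 26.7 CPM with TPA, so that TPA 2 lay close to control 3. CXCL8 was at 0.608, 5.76 and 19.2 CPM and 65.5 and 14.7 CPM, and its groups overlapped. Neither was called, with adjusted p of 0.373 and 0.401 (edgeR). CCL7, a chemokine, was at 0.195, 5.76 and 11.6 CPM and 0.527 and 0.314 CPM. Its controls were themselves spread widely, and it was called lower with the term for the library set, at a log2 fold change of -4.37.

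PTGS2 (cyclooxygenase 2), the inducible enzyme of prostaglandin synthesis, was the 1 gene called among 23 tested matrix proteases and prostaglandin enzymes, whose median log2 fold change was -0.04. It was at 12.1, 33.4 and 55.2 CPM in the controls and 1246 and 459 CPM with TPA. TPA 1 was the higher library, and both were far above each control (log2 fold change 4.67, SE 0.68, adjusted p = 0.0109). MMP1 (collagenase) and MMP3 (stromelysin), classic targets of phorbol esters, were not called at 1 h. MMP1 was at 62.5, 237 and 374 CPM and 113 and 85.1 CPM, with a log2 fold change of -1.18 (adjusted p = 0.459, SE 0.75). MMP3 was at 14.7, 7.44 and 36.5 CPM and 32.1 and 2.48 CPM, so that TPA 1 lay within the controls and TPA 2 below them. Its log2 fold change of -0.18 turned to 0.72 without TPA 2, 0.64 without control 3 and 0.54 without the 3 least similar libraries. TIMP1, an inhibitor of these proteases, was at 1044, 625 and 552 CPM and 256 and 95.4 CPM, below all controls in both TPA libraries but not called (adjusted p = 0.185).

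CYR61, a matricellular protein, was the 1 gene called among 21 tested targets of SRF and its actin-sensing partner MRTF (median log2 fold change 0.85). It was at 80.9, 136 and 133 CPM in the controls and 617 and 672 CPM with TPA, an even response with a log2 fold change of 2.47 (adjusted p = 0.00857, SE 0.34). ACTB (beta-actin) was at 1837, 1621 and 1115 CPM and 2917 and 5259 CPM, above all controls, and was not called (adjusted p = 0.204).

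Of 15 tested cAMP and CREB targets 4 were called higher (background 0.388%): NR4A1, NR4A3, DUSP1 and ARC. The median log2 fold change was 1.18. ARC, a cytoskeletal gene best known from active neurons, was at 0.543, 0.12 and 0.847 CPM in the controls and 11.2 and 105 CPM with TPA. Control 2 had 2 counts, TPA 2 was 9.35 times TPA 1, and the log2 fold change was 6.76 (adjusted p = 0.0308, SE 1.19). PER1, a clock gene with CREB sites, was at 13.5, 6.36 and 9.76 CPM and 22.1 and 87.5 CPM and was not called (adjusted p = 0.118).

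No gene of 23 tested NF-kappaB targets was called by edgeR (6 were higher at an unadjusted p under 0.05), and their median log2 fold change was 0.67, with 0.23 in the TPA 1 pair and 0.36 in the TPA 2 pair. NFKBIZ, an inducible cofactor of NF-kappaB, came to 389 and 329 CPM with TPA against 11.4, 32.8 and 60.8 CPM. Both TPA libraries were above each control, but the controls differed by several fold (log2 fold change 3.36, SE 0.80, adjusted p = 0.131). NFKBIA, the inhibitor that NF-kappaB induces, was at 199 and 555 CPM against 42.2, 82.96 and 133 CPM. With the term for the library set, NFKBIZ, NFKBIA and IRF1 were called higher.

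INSIG1, which holds back the sterol-regulated factor SREBP, was called among 22 tested genes of cholesterol and fatty acid synthesis. It was at 55.2, 50.98 and 56.7 CPM in the controls and 459 and 644 CPM with TPA, a log2 fold change of 3.34 (adjusted p = 0.0164, SE 0.53). The list had 21 positive values and a median log2 fold change of 1.06, with 1.49 in the TPA 1 pair and 0.41 in the TPA 2 pair. HMGCS1 and IDI1, enzymes of sterol synthesis, stood at 309.6 and 88.3 CPM and at 224 and 103 CPM in the TPA libraries, in each case with TPA 1 the higher. Their controls reached at most 57.8 and 47.7 CPM, and neither was called. With the term for the library set IDI1 was called higher, at a log2 fold change of 1.89, and HMGCS1 was not.

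Among growth and survival genes, 1 G1 regulator and 1 BCL2-family gene were called, and 4 and 3 with the term for the library set, which added GADD45A, CDKN2B and PLK3 to the first and BBC3 and PMAIP1 to the second. GADD45B, a stress and growth-arrest gene, rose by 4.35 among 17 tested G1 regulators (adjusted p = 0.0406, edgeR), from 20.6, 27.9 and 41.2 CPM to 141 and 1078 CPM. CCND1 (cyclin D1) was at 308, 959 and 969.7 CPM and 882 and 2128 CPM, with TPA 1 among the controls. Its log2 fold change of 1.01 (adjusted p = 0.419) became -0.13 without the 3 least similar libraries. CDKN1A (p21) was at 599, 712 and 613 CPM and 1255 and 2901 CPM and was not called. MCL1, a short-lived survival factor, was the 1 call among 13 tested BCL2-family genes, at 222, 201 and 320.1 CPM and 885 and 1433 CPM (log2 fold change 2.23, SE 0.31, adjusted p = 0.00853).

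KLF9 rose by 1.39 among 23 tested FOXO and growth-arrest genes (adjusted p = 0.0324, edgeR), whose median log2 fold change was 0.18. TXNIP, a glucose-responsive gene of the same list, was at 453, 559 and 396 CPM and 74.6 and 163 CPM, below each control in both TPA libraries, and was not called (adjusted p = 0.171). TGIF1, a repressor of TGF-beta signalling, rose by 1.82 (adjusted p = 0.00962, edgeR) among 13 tested TGF-beta brakes, whose median log2 fold change was 1.15. DNAJB1, a heat shock protein, rose by 1.31 (adjusted p = 0.0395, edgeR), the 1 call among 13 tested heat shock genes. DNAJB1 was called in 0 of the 5 fits that left out 1 library. Of 19 genes of S phase and mitosis and 17 of the unfolded protein response, none was called by edgeR (2 and 2 at an unadjusted p under 0.05). GDF15 was the 1 call among 17 tested p53 targets, and BHLHE40 and NFIL3 were the 2 among 18 clock genes. With the term for the library set, 0.948% of all tested genes were called higher. In that fit genes called higher came to 9 in the ERK feedback list, 7 among secreted factors, 5 among CREB targets, 4 among TGF-beta brakes and 3 among p53 targets. That fit called 2 each among mRNA decay, matrix protease and prostaglandin, cholesterol, unfolded protein, heat shock and clock genes, 1 each among SRF and FOXO genes, and 0 of S phase and mitosis.

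**Figure D4:**
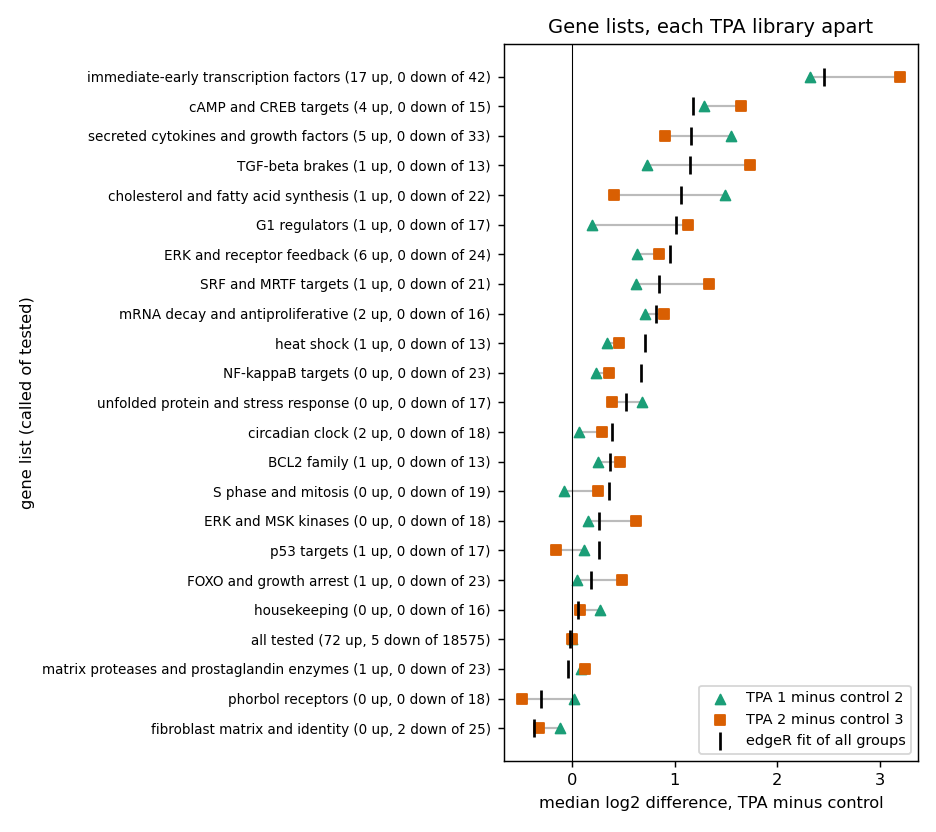
For each gene list the x axis gives the median log2 difference within the TPA 1 pair (triangles), within the TPA 2 pair (squares) and in the edgeR fit (bars), with the calls of each list beside its name. The immediate-early transcription factors lie at 2.32, 3.20 and 2.46, while all tested genes lie at 0, 0 and -0.02, and the synthesis genes of cholesterol lie higher in the TPA 1 pair.

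Of the 72 genes called higher, 33 were in no list. The following were chosen from them after their values were seen. SOWAHC, an ankyrin-repeat protein, was at 13.5, 20.7 and 28.2 CPM in the controls and 122 and 173 CPM with TPA, and its log2 fold change of 2.83 kept its call when any 1 of the 5 libraries was left out. TRIB1, a pseudokinase that guides protein degradation, was at 14.8, 10.6 and 16.5 CPM and 147 and 389.7 CPM (log2 fold change 4.26, SE 0.61, adjusted p = 0.00962). MAP2K3, a kinase that activates p38, rose by 1.93 (adjusted p = 0.0201, edgeR). KDM6B, a demethylase of histone H3 lysine 27, was at 5.41, 3.12 and 5.75 CPM and 22.5 and 83.98 CPM (log2 fold change 3.48, SE 0.55, adjusted p = 0.0164).

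SLC2A3 (the glucose transporter GLUT3) was at 29.5, 44.8 and 56.4 CPM and 187 and 171 CPM, and HK2 (hexokinase 2) at 17.1, 14.04 and 15.96 CPM and 34.02 and 48.8 CPM. Neither gene overlapped between groups, with log2 fold changes of 2.04 and 1.40 (adjusted p = 0.0293 and 0.0417, edgeR). GDNF, a neurotrophic factor, rose by 2.65, and TNFSF9 (the ligand 4-1BBL) by 2.88 (adjusted p = 0.0335 and 0.0225, edgeR). RHOB, an immediate-early small GTPase, was at 136, 100.0 and 101 CPM and 334 and 1605 CPM, with TPA 2 4.81 times TPA 1. C11orf96, one of the largest rises, was at 0.348, 0.78 and 1.49 CPM and 8.74 and 52.7 CPM (log2 fold change 5.13, SE 0.94, adjusted p = 0.0361).

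How far the TPA libraries matched varied over the 72. TPA 2 was the higher in 64 and TPA 1 in 8, the libraries were within 2-fold in 36, and TPA 2 exceeded TPA 1 over 4-fold in 15. The median ratio of TPA 2 to TPA 1 was 1.74, against 1.01 over all tested genes. At the ends were JUNB with a ratio of 10.3 and PTGS2 with 0.368, while EGR2, CYR61 and EGR1 had 1.01, 1.09 and 1.15.

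Few genes were called lower. EGFL6, a secreted matrix protein of the EGF repeat family, had 113, 22 and 84 counts in the controls and 2 and 6 counts in TPA 1 and TPA 2, or 2.45, 1.32 and 2.09 CPM against 0.062 and 0.0496 CPM (log2 fold change -5.12, SE 0.82, adjusted p = 0.0193). MGP (matrix Gla protein), an inhibitor of calcification, was at 5.28, 6.84 and 4.38 CPM and 1.24 and 1.09 CPM (log2 fold change -2.24, SE 0.44, adjusted p = 0.0484). BRF2, which helps RNA polymerase III to start at its promoters, was at 18.96, 15.7 and 14.3 CPM and 6.196 and 5.23 CPM (log2 fold change -1.51, SE 0.26, adjusted p = 0.0247). In each of these genes the TPA libraries were close to each other and lay below all controls. EGFL6 was near the floor of detection with TPA, at 2 counts in TPA 1 and 6 in TPA 2, and so were the other 2 genes called lower. RIC3 had 42, 10 and 25 counts in the controls and 2 and 3 in the TPA libraries. MCF2L had 22, 6 and 10 and then 0 in both, which allows up to 0.0929 CPM in TPA 1 and 0.0248 CPM in TPA 2. In bulk RNA, fewer cells that make a transcript and less of it per cell cannot be told apart.

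EGFL6 and MGP were the 2 genes called lower among 25 of fibroblast matrix and identity, whose median log2 fold change was -0.38 (-0.12 in the TPA 1 pair and -0.32 in the TPA 2 pair). In 6 of the 25 both TPA libraries lay below all controls, and in 0 above (background 10.1% and 9.6%). DCN (decorin) was at 2894, 4928 and 3728 CPM and 1681 and 1289 CPM, and PDGFRA at 1082, 650.1 and 869 CPM and 486 and 472 CPM, both without a call (adjusted p = 0.272 and 0.315, edgeR). COL1A1 was at 6933, 3017 and 4328 CPM and 5122 and 16656 CPM, and TPA 1 lay within the controls. Named after their values were seen, the matrix and secreted genes APOD, FMOD, OMD and SELENOP had log2 fold changes of -2.55, -2.47, -2.41 and -2.39. Their adjusted p were 0.359, 0.204, 0.0862 and 0.0614, and each was called lower with the term for the library set.

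The direct receptors of phorbol esters were not called. Of 18 tested genes, the protein kinase C isoforms and other proteins with a C1 domain, 0 were called by edgeR. Their median log2 fold change was -0.31, and 3 had an unadjusted p under 0.05 (2453 of 18575 over all tested genes). In 5 of the 18 both TPA libraries lay below all controls, and in 1 above (background 10.1% and 9.6%). Of those 3 genes PRKD1 was higher, and CHN2 and RASGRP4 were lower on few counts. CHN2 had 10, 4 and 15 counts in the controls and 0 in both TPA libraries, and RASGRP4 had 20, 6 and 19 and then 3 and 14. PRKCA was at 131, 138 and 131 CPM in the controls and 239 and 93.2 CPM with TPA, so that TPA 1 lay above the controls and TPA 2 below them. Its log2 fold change was 0.32, and -0.55 without TPA 1. PRKCD was at 8.796, 5.698 and 4.23 CPM and 7.25 and 7.49 CPM, which overlapped. PRKCE was at 26.6, 13.9 and 14.3 CPM and 16.4 and 11.8 CPM, and its log2 fold change of -0.38 became 0.21 without the 3 least similar libraries. PRKD1 was at 24.3, 28.2 and 22.01 CPM and 44.5 and 34.3 CPM (adjusted p = 0.37). A list of ERK cascade and MSK kinases with the nuclear factors ELK1, ELK3, ELK4 and SRF had no call either (0 of 18 by edgeR, 2 at an unadjusted p under 0.05, of which ELK1 is 1).

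Of 16 housekeeping genes none was called (2 at an unadjusted p under 0.05, edgeR), and their median log2 fold change was 0.06. GAPDH was at 2916, 1734 and 1592 CPM and 2053 and 1177 CPM, a log2 fold change of -0.37 that became 0.30 without the 3 least similar libraries. Fibroblast markers were abundant in all 5 libraries, with a summed level, here without TMM scaling, of 26448 to 58029 CPM in the controls, 27949 in TPA 1 and 32402 in TPA 2. Of 9 keratinocyte, 7 endothelial, 6 melanocyte and 8 leukocyte markers, 8, 5, 4 and 6 were under 1 CPM in all 5 libraries. Summed keratinocyte markers were at 7.91 to 13.6 CPM in the controls, 9.28 in TPA 1 and 45.1 in TPA 2, of which KRT10 made 44.4 CPM. The other 3 sums were between 0.994 and 8.13 CPM in the controls and between 1.61 and 4.80 CPM with TPA. Separate lists of 13, 11, 8 and 11 markers of these types also held genes outside the sums that were not low. Over the 5 libraries, in TMM-scaled CPM, PERP ran from 88.1 to 277, ENG from 29.6 to 180 and CD68 from 21.9 to 48.1. MITF ran from 30.2 to 46.2 and KIT from 7.62 to 16.4, while others, such as ERG and HLA-DRA, stayed under 1. KRT5, KRT14, PECAM1 and TYR had 5, 2, 9 and 10 counts in control 1 and 0 in the other 4 libraries, while IVL had 16 counts in TPA 2.

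TPA was also given in libraries whose levels did not choose the 72 genes, although they entered the shared estimate of spread. Cells given H89 before TPA (2 libraries, of 7527026 and 70470733 counts) were compared with cells given H89 alone (3 libraries). The 72 genes were all positive, against 47.2% of all tested genes, with a median log2 fold change of 1.91 (0 over all genes). Without H89 the median of the 72 was 3.26, from the values that chose them. Both TPA+H89 libraries lay above all 3 H89 libraries in 66 of the 72, against a background of 9.92%. RHOB and CCDC85B were among those that overlapped, with log2 fold changes of 0.69 and 0.46 against 3.11 and 3.38 without H89. DUSP1 and JUNB did not overlap, at 2.37 and 3.33 against 4.80 and 5.66. Whether H89 changed these rises was not tested. By the edgeR test 17 of the 72 were called higher (background 0.0969%, 18 genes in all).

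EGR2 was at 8.46, 5.37 and 5.92 CPM in the H89 libraries and 265 and 365 CPM in the TPA+H89 libraries, a log2 fold change of 5.58 (adjusted p = 0.00454, edgeR, with SE 0.57). DUSP2 was at 0.313, 0.602 and 1.24 CPM and 49.9 and 37.6 CPM, a log2 fold change of 5.88 (adjusted p = 0.0175, edgeR, with SE 0.80). FOSB, with no high library among these references, was at 0.235, 0.459 and 0.89 CPM and 69.6 and 81.8 CPM, groups far apart, although its adjusted p was 0.143. The genes that fell were less alike. Of the 5, 2 lay below all H89 libraries (background 10.9%), and the median log2 fold change was -0.77. MGP was at 4.03, 2.09 and 1.92 CPM and 2.37 and 3.04 CPM, which overlapped, and EGFL6 was already low, at 0.783, 1.25 and 0.282 CPM with H89 alone and 0 and 0.205 CPM with TPA+H89. H89 alone was recorded at 0 h, so time and TPA cannot be told apart here either.

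Against EGF, the other mitogen, no gene was called in TPA by edgeR (2480 had an unadjusted p under 0.05, and DESeq2 called 170 higher and 130 lower). With the term for the library set edgeR called 38 higher and 24 lower, ARC and DUSP2 among the higher. The 72 genes were all higher in the fit, with a median log2 difference of 1.46 against -0.03 over all genes, but they were chosen on the same TPA libraries. In 60 of them both TPA libraries lay above all 3 EGF libraries (background 9.71%). Side by side, ARC had a log2 difference of 5.79 (SE 1.14, adjusted p = 0.256) and DUSP2 of 3.48 (SE 0.72, adjusted p = 0.256). DUSP2 was at 12.5, 3.27 and 4.12 CPM in the EGF libraries. EGR2 was at 42.98, 157 and 201 CPM with EGF, below both TPA libraries, with a log2 difference of 1.38 (SE 0.50, adjusted p = 0.338). ERRFI1 had the smallest difference of the 72, 0.14. EGF against control was a contrast of the same model, and it called 5 of the 72 higher. Among these were EGR2, DUSP5 and ERRFI1, with log2 fold changes of 4.11, 2.62 and 1.77. CYR61 and RHOB had 2.10 and 2.56 with EGF without a call, and ARC and INSIG1 had 0.97 and 0.55.

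**Figure D5:**
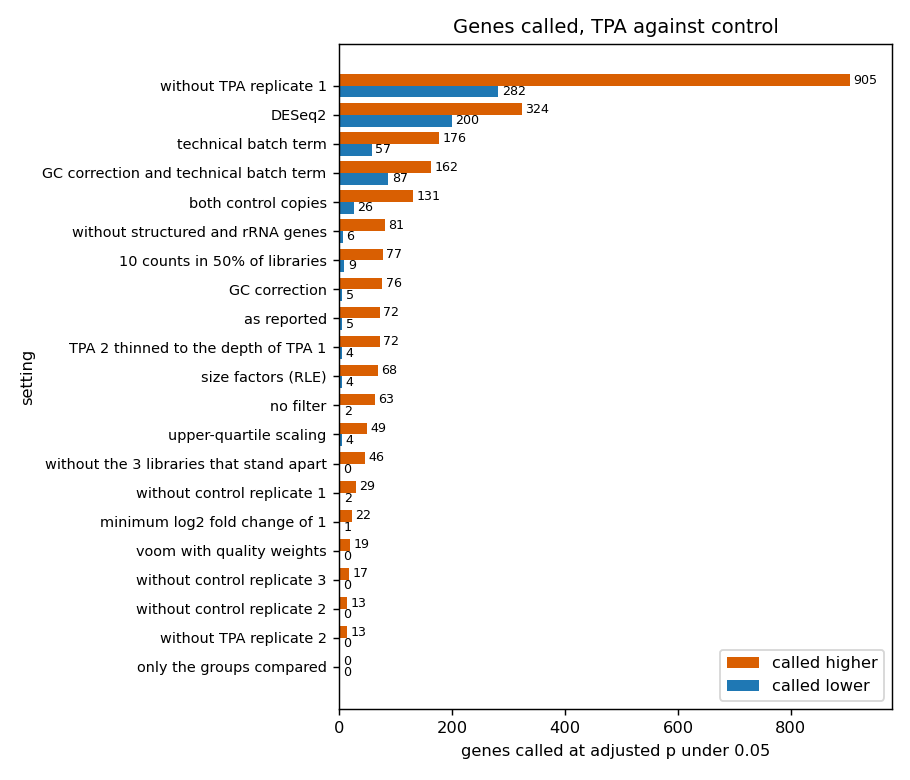
Bars give the number of genes called higher (orange) and lower (blue) in TPA against control at an adjusted p under 0.05, on an axis from 0, for each way of processing. The comparison as reported has 72 and 5, and the counts run from 0 with only the compared groups to 905 and 282 without TPA 1.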

How the data were processed

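The values were raw counts of reads per gene symbol, deposited by the authors for 28374 genes and 16 samples and used as deposited. Per the labels' protocols, RNA was depleted of ribosomal RNA, and the labels list 3 sequencing platforms but not which sample was run on which. HOMER and the builds hg19 and GRCh37 are named in the submitters' processing notes. Aligner, annotation and strand setting: not given in the sources used here. Therefore overlapping and antisense genes cannot be told apart.

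Genes were kept by filterByExpr (smallest count 10), libraries were scaled by TMM, and all 15 distinct libraries were fitted with a term per group by edgeR 4.0.16's quasi-likelihood test in R 4.3.3, with Benjamini-Hochberg adjustment at 0.05. TPA+H89 against H89 was a contrast of the same model, added later. Differences within pairs were taken on log2 CPM (prior count 2). GC content came from GENCODE transcripts for 17426 tested genes. Scripts were tested on simulated data.

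Named genes were up to 16 rises and 10 falls by size among called genes with groups that did not overlap and a mean of at least 1 CPM, preset genes, and up to 5 members per list in order of p. Other names were chosen after their values were seen. The members and lists were chosen with earlier results of these data known. Alternatives were DESeq2 1.42.0, limma 3.58.1 (voom with quality weights), other scalings and filters, a minimum log2 fold change of 1, only the compared groups, terms for library set and GC content, thinning of TPA 2, both control copies, removal of structured RNAs, and leaving out libraries.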

Additional observations from a re-analysis of the deposited data

How the results depend on the processing

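Over 20 alternatives, none of the 77 called genes reversed. The TPA and control libraries of each of them did not overlap, which left little room for a reversal. For TPA against control, genes called higher and lower were 324 and 200 with DESeq2, 19 and 0 with voom quality weights (limma), 22 and 1 with a minimum log2 fold change of 1, 176 and 57 with a term for the library set (technical batch), which included all 72 and all 5, 162 and 87 with that term and GC correction, 131 and 26 with both control copies, and 46 and 0 without control 1, EGF 1 and TPA 2. They were 0 and 0 with only the compared groups (15923 genes tested). Genes called lower were 2 with no filter and 9 with 10 counts in 50% of libraries. Leaving out 1 library gave 13 to 905 higher and 0 to 282 lower. Upper-quartile scaling gave 49 and 4, and size factors 68 and 4. For TPA against EGF, calls were 170 and 130 with DESeq2, 1 higher with voom, 38 and 24 with the library set term, 28 and 36 with that term and GC correction, and 0 to 883 higher and 0 to 282 lower on leaving out 1 library (the highest without TPA 1). The cause of these shifts was not tested.

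Of 138 genes followed, 6 turned direction in some setting, none of them a called gene: without control 1, EGF 1 and TPA 2, DUSP6 was -0.10, MMP3 0.54, CCND1 -0.13, GAPDH 0.30 and PRKCE 0.21; leaving out 1 library gave -2.99 to 0.72 for MMP3 (0.64 without control 3) and -0.55 to 0.85 for PRKCA. No paired analysis was possible because the labels give only a running sample number, so replicate numbers pair no samples. The within-set pairs and the library set term rest on sets read from the counts, and the set of control 1 holds no TPA library. Genes of few counts, such as RIC3, MCF2L and, with TPA, EGFL6, are limited by depth.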
